A study of Homo sapiens with 6 samples.

Results

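The potassium channel genes of human cardiomyocytes derived from stem cells were examined after alcohol, with and without losartan. Every gene whose symbol in the series table begins with KCN and holds no hyphen was taken, which gave 87 of the 21134 genes listed. The rule reads the symbol alone. The 9 KCN symbols with a hyphen, which are antisense and intronic transcripts, were left out. RNA was sequenced from 6 libraries, 2 from untreated cells (control), 2 from cells given 100 mM alcohol for 24 h, and 2 from cells given 100 mM alcohol together with 1 μM losartan, a blocker of the angiotensin II type 1 receptor, for 24 h (co-treated). No group with losartan alone was analysed here. The study calls the cells hiPSC-CMs and names the line H9, which is an established line of human embryonic stem cells, so all 3 groups rest on 1 line with no genetic change named. The labels number 2 repeats in a group without saying whether they came from separate cultures, so the spread between them may be technical.

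Potassium channels let potassium leave the cell and thereby end the cardiac action potential and hold the resting potential. Each channel is built from pore-forming subunits, and many carry auxiliary subunits that change how fast the pore opens or how much of it reaches the membrane. In heart muscle the currents are named by their timing, as the transient outward current (KCND pores with KCNIP2), the ultrarapid (KCNA5), rapid (KCNH2) and slow (KCNQ1 with KCNE1) delayed rectifiers, the inward rectifiers (KCNJ2, KCNJ12 and KCNJ4), the acetylcholine-activated current (KCNJ3 with KCNJ5) and the ATP-sensitive current (KCNJ8 or KCNJ11 with a sulfonylurea receptor). Inherited loss of function of KCNH2 or KCNQ1 lengthens the QT interval of the electrocardiogram.

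Levels are given as FPKM, which corrects the estimated reads of a gene (its expected count) for transcript length and library size. A library held 4898287 to 5051448 expected counts in total, and the KCN genes took 5894 to 6722 of these, or 0.117% to 0.137%. A gene listed at 0 could still have had up to 3 counts, which on the CPM scale (counts relative to the library's total) is 0.594 to 0.612, and this floor covers counting error only. Among 10 cardiomyocyte markers MYL7 was the highest, at 9321 to 16180 FPKM, and TNNT2 stayed at 3194 to 3728. MYL2 differed between libraries of the same group, at 2139 and 863 in control and 2610 and 821 in alcohol. MYH6 differed the other way, at 349 and 717 in control and 381 and 737 in alcohol. In co-treated libraries MYL2 was at 2478 and 2862 and MYH6 at 305 and 374. The summed FPKM of the 10 markers lay between 19541, in alcohol replicate 2, and 26726, in control replicate 1. Alcohol replicate 2 also had the lowest summed FPKM of 5 smooth muscle markers, 743, against 1952 and 1713 in the control libraries, 1479 in alcohol replicate 1 and 1014 and 1060 in the co-treated libraries. The filter on low counts was passed by all 10 cardiomyocyte markers and also by 8 of 10 neuronal markers, with TUBB3 at 5.25 to 7.3 FPKM and SNAP25 at 3.45 to 6.42, while ELAVL3 and ELAVL4 stayed at 3 counts or fewer.

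KCNH2 (NCBI Gene 3757), the pore of the rapid delayed rectifier, had the highest level of the 87 genes in every library and ranked 1040 among all genes of the table by mean FPKM. KCNIP2 (NCBI Gene 30819), the cytoplasmic subunit that brings KCND channels to the membrane and shapes their inactivation, came next by the mean over all 6 libraries, followed by KCNA5, KCNH7, KCNN2 and KCNJ8. This order differed between groups, since in control KCNA5 (18.1 FPKM) was above KCNIP2 (12.4), and KCNMB1 (9.59), KCNJ4 (9.19) and KCNE1 (9.13) were above KCNJ8 (7.21). Only 5 of the 87 genes had a mean of 10 FPKM or more, 15 reached 5 and 30 reached 1. At the other end, 44 genes stayed under 10 counts in every library and 22 of these at 3 counts or fewer. A count was found in every library for 50 genes, and 36 passed the filter on low counts and were tested. Of the 51 others, 7 had at least 10 counts in some library (KCNRG, KCNAB3, KCNJ14, KCNS3, KCNJ16 and KCNH1 among them).

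**Figure D1:**
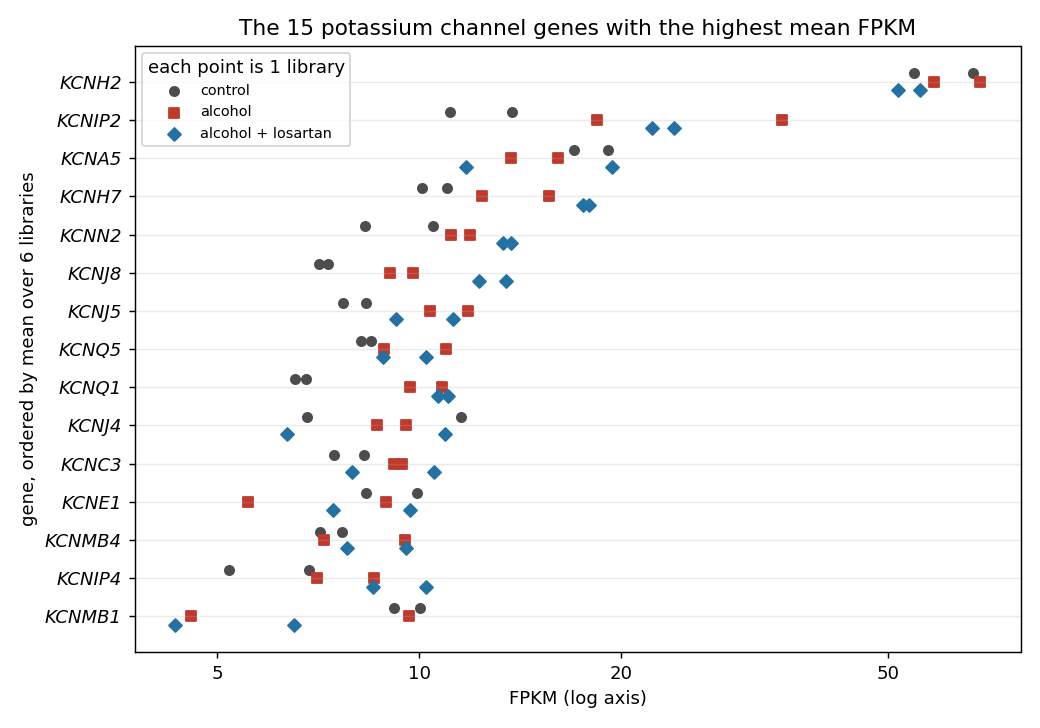
FPKM (log axis) of the 15 potassium channel genes with the highest mean, 1 point for each of the 6 libraries, with the group shown by colour and marker. KCNH2 lies apart from the others at 51.78 to 68.72 FPKM, and the points of KCNIP2 spread from 11.12 to 34.78.

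The promoter windows of 3 genes are shown. KCNH7 and KCNQ1, which were also among the genes with the lowest p, had no window to show. KCNIP2 is the gene that passed the main test described below, and only with both groups given alcohol combined against control. KCNJ8 is among the genes with the lowest p in the co-treated cells, and KCNH2 is the most abundant. Each window is the 250 bases before the outermost RefSeq start of the gene on GRCh38, on the minus strand of chr10:101843801-101844050, chr12:21774707-21774956 and chr7:150978322-150978571, written 5′ to 3′. Other starts of a gene were not examined, and which start these cells use was not measured. Capitals mark GC boxes, the letters GGGCGG on either strand, which is the motif bound by SP-family factors.
KCNIP2: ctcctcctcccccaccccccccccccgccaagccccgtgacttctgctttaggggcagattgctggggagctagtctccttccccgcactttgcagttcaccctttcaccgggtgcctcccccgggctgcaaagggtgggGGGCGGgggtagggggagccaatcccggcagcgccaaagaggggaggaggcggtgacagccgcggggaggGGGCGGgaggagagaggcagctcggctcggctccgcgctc
KCNJ8: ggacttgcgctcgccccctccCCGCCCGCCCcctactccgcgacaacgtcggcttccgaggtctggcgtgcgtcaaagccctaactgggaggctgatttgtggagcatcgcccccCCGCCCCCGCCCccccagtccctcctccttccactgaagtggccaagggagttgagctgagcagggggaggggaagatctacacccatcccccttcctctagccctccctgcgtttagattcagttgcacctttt
KCNH2: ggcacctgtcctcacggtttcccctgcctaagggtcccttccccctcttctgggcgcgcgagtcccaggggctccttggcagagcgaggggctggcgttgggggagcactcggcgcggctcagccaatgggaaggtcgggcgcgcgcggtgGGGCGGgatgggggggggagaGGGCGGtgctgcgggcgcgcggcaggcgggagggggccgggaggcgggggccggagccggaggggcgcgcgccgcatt
The GC box was found 2 times in the KCNIP2 window, 4 times in that of KCNJ8 and 2 times in that of KCNH2, some of the KCNJ8 matches lying side by side. The letters TATAAA were in none of the 3 on either strand. The letters CCAAT occurred 1 time each in the windows of KCNIP2 and KCNH2, and an E-box (CANNTG, which reads alike on both strands) 1 time each in those of KCNJ8 and KCNH2. Of the 87 genes 64 matched the RefSeq table, and 39 of them held a GC box, against 42.2% of 27305 windows of the same length. The other motifs were found in 18 of 64 (CCAAT, 33% of all windows), 6 of 64 (TATAAA, 11.2%) and 36 of 64 (CANNTG, 62.2%). The median GC content of the 64 windows was 65.4%, against 57.6% over all windows. These matches describe the letters only, and no measurement of factor binding was made.

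By class, the ether-a-go-go type pores (KCNH) held the largest summed FPKM in every library but co-treated replicate 2, at 65.8 and 78.7 in control, 71.9 and 85.4 in alcohol, and 74.8 and 69.9 in co-treated libraries. Auxiliary subunits and regulators, which counted 17 genes with 11 tested, summed to 61.3 and 57.6 in control, 69.8 and 72.2 in alcohol, and 70.9 and 70.6 in co-treated libraries. The inward rectifiers, the shaker-related pores with the silent subunits, the KCNQ pores and the calcium- and sodium-activated pores followed, and the tandem-pore leak channels (KCNK) summed to no more than 5.11 FPKM in any library. The control libraries lay below all 4 libraries with alcohol for the auxiliary, KCNQ and calcium- and sodium-activated classes. For the other pore classes they overlapped. KCNIP2 is part of the auxiliary sum, at 11.12 and 13.75 FPKM in control and 18.44 to 34.78 with alcohol. Of the 11 auxiliary genes tested, only KCNIP2, KCNIP4 and KCNAB2 had all 4 libraries with alcohol above both controls in normalized CPM. By the mean over all 6 libraries the highest genes of the classes were KCNH2, KCNIP2, KCNJ8, KCNA5, KCNQ5, KCNN2 and KCNK3, and for 3 classes the order changed with the group. KCNJ4 and KCNJ5 (8.02 FPKM) exceeded KCNJ8 in control, KCNJ5 exceeded it in alcohol (11.1 against 9.43), and KCNK6 (1.39 and 1.04 FPKM) overlapped with KCNK3 in co-treated cells. KCNQ1 exceeded KCNQ5 in alcohol (10.2 against 9.92) and co-treated cells (10.9 against 9.55).

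**Figure D2:**
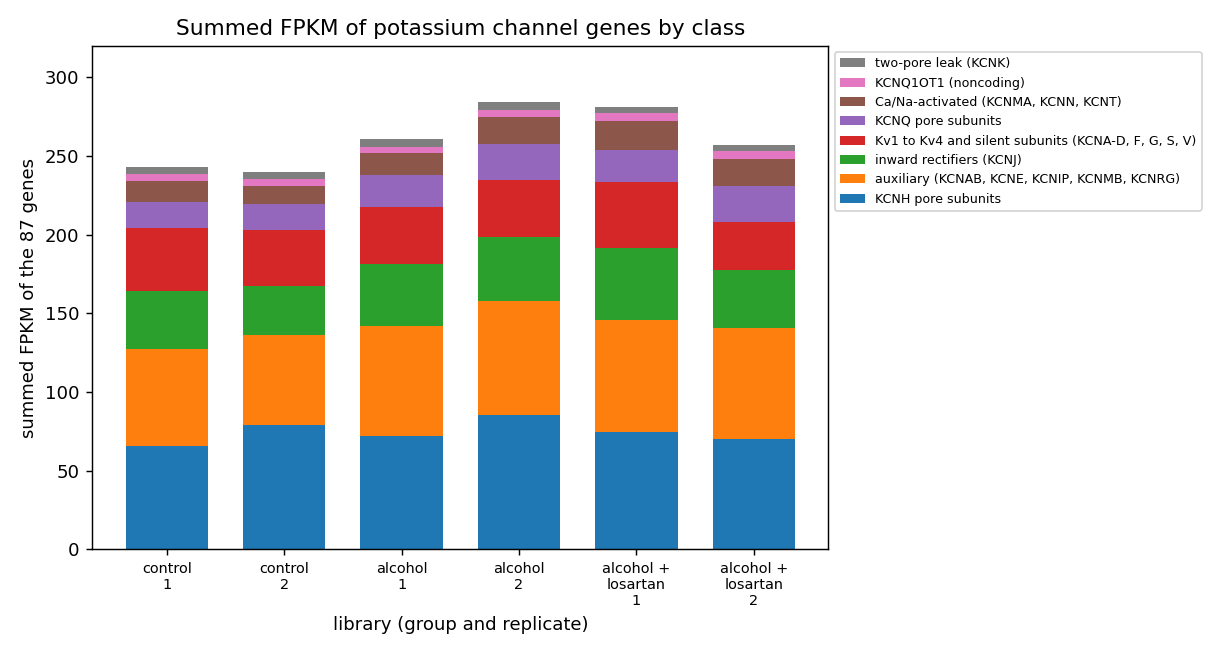
Stacked bars of the summed FPKM of the 87 potassium channel genes, 1 bar for each of the 6 libraries (y axis from 0), with the segments coloured by class of gene. The bars reach 243 and 239.6 FPKM in control, 261 and 284.2 in alcohol and 281 and 257 in co-treated libraries, with the KCNH and auxiliary classes as the 2 largest segments in each.

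For the rapid delayed rectifier, KCNH2 was at 54.73 and 66.98 FPKM in control, 58.59 and 68.72 in alcohol, and 55.91 and 51.78 in co-treated libraries. In FPKM the control libraries overlapped with both other groups, and both co-treated libraries lay below both alcohol libraries. On the normalized CPM scale used below to judge overlap, both co-treated libraries also lay below both controls. KCNH2 made up 19.9% and 20.2% of the summed KCN FPKM in the co-treated libraries against 22.5% and 27.95% in control. KCNE2, a small auxiliary subunit of the same channel, was at 1 to 6 counts. KCNH7, a close relative of KCNH2 better known from neurons, was at 10.1 and 10.99 FPKM in control, 12.4 and 15.61 in alcohol, and 17.93 and 17.53 in co-treated libraries. All 4 libraries with alcohol lay above both controls for KCNH7, and both co-treated libraries above both alcohol libraries. The ratio of KCNH2 to KCNH7 was 5.42 and 6.09 in control, 4.73 and 4.40 in alcohol and 3.12 and 2.95 in co-treated libraries. KCNH7 shares exon bases with GCA on the opposite strand, which held 154 to 200 counts per library. The summed FPKM of 10 neuronal markers was also lowest in control, at 17.1 and 18.5, against 21.0 and 19.7 in alcohol and 20.3 and 20.2 in co-treated libraries. The markers did not move as 1 group, since SNAP25 (3.45 and 3.46 in control, 4.7 to 6.42 FPKM in the other libraries) and SYT1 were higher with alcohol, TUBB3 and NEFL did not stand above the controls, and MAP2 was at 2.14 and 1.19 in control against 0.45 to 1.36. None of the 8 tested was called, and their part in the KCNH7 values was not tested.

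For the slow delayed rectifier, the pore KCNQ1 was at 6.78 and 6.53 FPKM in control, 9.68 and 10.81 in alcohol, and 10.66 and 11.05 in co-treated libraries. The control libraries lay well below the other 4, which overlapped among themselves in FPKM. Its partner KCNE1, which slows the opening of the channel, was at 9.93 and 8.32 FPKM in control, 8.91 and 5.56 in alcohol, and 9.7 and 7.44 in co-treated libraries, with all groups overlapping. The ratio of KCNE1 to KCNQ1 was 1.46 and 1.27 in control libraries, 0.920 and 0.514 in alcohol libraries and 0.910 and 0.673 in co-treated libraries, so that KCNE1 exceeded KCNQ1 in the 2 controls alone. The noncoding transcript KCNQ1OT1, which is read from the opposite strand inside KCNQ1 and silences neighbouring genes on the paternal chromosome, held 1804 to 2302 counts, and 29.8% to 36.1% of all KCN counts. KCNQ1OT1 stood at 3.84 to 5.01 FPKM and overlapped between control and alcohol. KCNQ1 and KCNQ1OT1 share exon bases, and whether reads were counted by strand is not given in the sources used here, so reads of the 2 genes cannot be told apart there. KCNQ5, another KCNQ pore, stood at 8.19 and 8.47 FPKM in control and between 8.84 and 10.97 in the other libraries.

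For the transient outward current, KCNIP2 was at 11.12 and 13.75 FPKM in control, 18.44 and 34.78 in alcohol, and 23.96 and 22.27 in co-treated libraries, which were 112 and 136, 196 and 326, and 245 and 245 counts. The control libraries were the 2 lowest of the 6, and the 2 alcohol libraries were further apart than the libraries of either other group. The pores it serves were scarce, with 0 to 6 counts of KCND2 and 0 to 3 counts of KCND3 per library. KCND1 was at 0.92 and 1.34 FPKM in control, 1.08 and 2.27 in alcohol, and 1.46 and 1.55 in co-treated libraries, with control and alcohol overlapping. KCNIP2 stood at 9.19 and 8.38 times the summed FPKM of KCND1, KCND2 and KCND3 in control, at 15.0 and 14.1 times in alcohol and at 16.4 and 12.8 times in co-treated libraries. KCNIP4, a relative of KCNIP2, was at 6.84 and 5.2 FPKM in control, 7.05 and 8.57 in alcohol, and 8.54 and 10.23 in co-treated libraries. KCNA4, the pore of a slowly recovering transient outward current, was at 3.2 and 2.31 FPKM in control and between 1.55 and 2.08 in the other 4 libraries. The antisense gene of KCNIP2, on the opposite strand with shared exon bases, held 7 and 12 counts in control, 13 and 26 in alcohol, and 15 and 10 in co-treated libraries.

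KCNA5, the pore of the ultrarapid delayed rectifier of the atrium, was at 19.15 and 17.0 FPKM in control, 16.13 and 13.72 in alcohol, and 19.39 and 11.74 in co-treated libraries. The alcohol libraries lay below the controls and the co-treated libraries on both sides of them. KCNAB2, a cytoplasmic beta subunit of the KCNA channels, was scarce, at 12 and 6 counts in control, 24 and 20 in alcohol, and 17 and 17 in co-treated libraries. KCNAB2 shares exon bases with NPHP4 on the opposite strand, which held 23 to 34 counts per library. KCNE3, a small auxiliary subunit, had 11.9 and 19 counts in control, 5.1 and 7.5 in alcohol, and 17.8 and 10 in co-treated libraries.

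Among the inward rectifiers KCNJ2, the main pore of the resting current of adult ventricle, was near the floor, with 2 and 4 counts in control, 0 and 1 in alcohol, and 1 and 2 in co-treated libraries, and it was not tested. Its relatives KCNJ4 and KCNJ12 were present at 6.36 to 11.56 and 1.62 to 2.63 FPKM, with the groups overlapping. KCNJ12 has a near-identical copy, KCNJ18, which was not analysed here, so its counts are uncertain. KCNJ5, a pore of the acetylcholine-activated channel, was at 8.32 and 7.71 FPKM in control, 10.38 and 11.82 in alcohol, and 11.22 and 9.24 in co-treated libraries, above both controls in all 4. Its partner KCNJ3 was at 2.67 to 3.94 FPKM. KCNJ8, the pore of ATP-sensitive channels found in vascular muscle and in heart, was at 7.32 and 7.09 FPKM in control, 9.79 and 9.06 in alcohol, and 12.3 and 13.47 in co-treated libraries, and the 3 groups did not overlap. The other ATP-sensitive pore, KCNJ11, was at 3.27 and 2.83 FPKM in control, 3.97 and 4.58 in alcohol, and 3.89 and 2.7 in co-treated libraries. KCNJ8 stood at 2.24 and 2.51 times KCNJ11 in control, 2.47 and 1.98 times in alcohol, and 3.16 and 4.99 times in co-treated libraries. The summed FPKM of 7 endothelial markers was 7.16 and 6.27 in control, 7.95 and 8.88 in alcohol, and 9.31 and 11.1 in co-treated libraries, and most of this order came from KDR, at 4.0 and 3.7, 5.18 and 6.53, and 6.67 and 7.7 FPKM. The other 6 markers were each under 1 FPKM in every library except TEK (CLDN5 at 3 counts or fewer), TEK was highest in control replicate 1 at 1.94 FPKM, and none of the 4 tested was called. Their part in the KCNJ8 values was not tested.

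KCNN2, a small-conductance channel opened by calcium, was at 10.5 and 8.29 FPKM in control, 11.15 and 11.91 in alcohol, and 13.69 and 13.32 in co-treated libraries, with the groups in that order and not overlapping. KCNN3 was at 0.62 to 0.94 FPKM and KCNN1 at 2 to 7 counts. KCNMA1, the large-conductance calcium-activated pore, had 1.97 to 8 counts, while its auxiliary subunits KCNMB4 and KCNMB1 were plentiful beside it. KCNMB1, which is typical of smooth muscle, was at 10.02 and 9.16 FPKM in control, 9.64 and 4.57 in alcohol, and 4.32 and 6.5 in co-treated libraries. The smooth muscle actin gene ACTA2 was at 507 and 580 FPKM in control, 337 and 203 in alcohol, and 248 and 224 in co-treated libraries. In alcohol replicate 1 KCNMB1 lay between the controls, while ACTA2, TAGLN (689 FPKM) and MYH11 (3.89) lay below both. CNN1 (422 FPKM) and LMOD1 (27.4) were above both controls in that library. All 5 smooth muscle markers had a log2 fold change below 0 in alcohol and in co-treated cells against control, and 1 of them passed the test in the co-treated cells. None of these markers was at 0, and their part in the KCNMB1 values was not tested. KCNT2, a sodium-activated pore, was at 1.0 and 1.55 FPKM in control, 1.63 and 2.68 in alcohol, and 2.36 and 2.22 in co-treated libraries. KCNK3, the tandem-pore leak channel known from human atrium, was at 1.92 and 1.88 FPKM in control, 2.28 and 1.85 in alcohol, and 1.28 and 1.1 in co-treated libraries. KCNK2 and KCNK1 stayed at 4.57 to 9.10 and 0 to 7 counts.

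The comparison of alcohol with control asked how alcohol alone altered these genes. KCNIP2 had the lowest p of the 36 genes tested, at 12.4 ± 1.86 FPKM in control and 26.6 ± 11.6 in alcohol (mean ± SD, n = 2), and KCNQ1 followed at 6.66 ± 0.177 against 10.2 ± 0.799. None of the 36 passed an adjusted p of 0.05 in edgeR's quasi-likelihood test with Benjamini-Hochberg adjustment over all 14926 genes, where 0.067% of the genes passed, and DESeq2 called 1, KCNIP2, where it called 0.482% of all genes. The log2 fold change of KCNIP2 was 1.05 (SE 0.21, edgeR adjusted p = 0.0924) and that of KCNQ1 was 0.59 (SE 0.16, edgeR adjusted p = 0.179). At an unadjusted edgeR p under 0.05 there were 7 genes, 19.4% of those tested against 11% of all genes. Of these 7, 6 were higher in alcohol (KCNIP2, KCNQ1, KCNAB2, KCNJ5, KCNH7 and KCNT2, against 5.27% of all genes) and 1 was lower (KCNE3, against 5.78%). KCNAB2 and KCNE3 had log2 fold changes of 1.26 (SE 0.49) and -1.26 (SE 0.58), from few counts, and edgeR adjusted p of 0.355 and 0.447. The 2 libraries of each group did not overlap in CPM for 18 of the 36 genes, which is 50% against 43.8% of all genes. The median log2 fold change was 0.17 over the 36 genes and -0.0033 over all genes. Between 2 and 2 libraries an exact permutation test cannot go below p = 0.333, and in bulk RNA fewer cells of a type and less RNA per cell cannot be told apart. Without alcohol replicate 1, KCNIP2 was called (log2 fold change 1.37, edgeR adjusted p = 0.0025), and without alcohol replicate 2 it had 0.66 (edgeR adjusted p = 0.592).

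The comparison of co-treated cells with control used the same 2 control libraries. KCNH7 had the lowest p, at 10.5 ± 0.629 FPKM in control and 17.7 ± 0.283 in co-treated libraries (n = 2), followed by KCNIP2 at 23.1 ± 1.195, KCNJ8 at 12.9 ± 0.827 against 7.21 ± 0.163, and KCNQ1 at 10.9 ± 0.276. None of the 36 passed the adjusted threshold, which 0.362% of all genes did, and DESeq2 called 2, KCNH7 and KCNIP2, where it called 0.824% of all genes. In edgeR the log2 fold changes and adjusted p were 0.71 (SE 0.14) and 0.0589 for KCNH7, 0.96 (SE 0.21) and 0.0776 for KCNIP2, 0.79 (SE 0.18) and 0.0787 for KCNJ8, and 0.68 (SE 0.16) and 0.0924 for KCNQ1. At an unadjusted edgeR p under 0.05 there were 11 genes, 30.6% against 12.6% of all genes. Of these, 7 were higher (the 4 above with KCNIP4, KCNT2 and KCNN2, 6.26% in all genes) and 4 were lower (KCNMB1, KCNA6, KCNK3 and KCNA4, 6.37%). Among the lower genes KCNMB1 had a log2 fold change of -0.87 (SE 0.34, edgeR adjusted p = 0.307) and KCNK3 of -0.73 (SE 0.32, edgeR adjusted p = 0.356). KCNA6, a shaker-related pore, had -1.12 (SE 0.44, edgeR adjusted p = 0.308). It shares exon bases with GALNT8, which held only 0 to 2 counts per library. The libraries did not overlap for 19 genes, 52.8% against 43.3%, and the median log2 fold change was 0.05, against -0.0017 over all genes. KCNH7 lay at an edgeR adjusted p between 0.0269 and 0.349 over the alternatives and was past the threshold in 6 of 14.

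With the 2 groups given alcohol combined against control, KCNIP2 rose 2.01-fold (log2 fold change 1.01, SE 0.19, edgeR adjusted p = 0.0382) and was higher in 4 of 4 libraries. It was the single KCN gene called, 2.78% of the 36 against 0.556% of all genes. KCNQ1, KCNH7 and KCNJ8 had log2 fold changes of 0.63 (SE 0.14), 0.53 (SE 0.13) and 0.57 (SE 0.16), with edgeR adjusted p of 0.0641, 0.0782 and 0.122. Each of these 3 was also higher in 4 of 4 libraries than in both controls. At an unadjusted edgeR p under 0.05 there were 12 genes, 33.3% against 13.5% of all genes, of which 9 were higher (25% against 6.48%) and 3 lower (8.33% against 7.05%). The lower genes were KCNA6 (-0.99), KCNA4 (-0.60) and KCNMB1 (-0.66) as log2 fold changes, and for KCNMB1 the libraries overlapped. Between control and the 4 other libraries 12 genes did not overlap, 33.3% against 23.2%, and an exact permutation test of 4 against 2 cannot go below p = 0.0667. The call of KCNIP2 was lost without control replicate 1 (edgeR adjusted p = 0.127) or 2 (0.0888), without co-treated replicate 1 (0.120) or 2 (0.163), without the filter on low counts (0.0829), and in limma (0.152 and 0.156 with 1 and 0.1 added to the FPKM). It was kept without alcohol replicate 1 (0.00106) or 2 (0.0461) and by DESeq2 (0.00181, where 1.08% of all genes were called). Reads from the exon bases it shares with its antisense gene, which held 7 to 26 counts, cannot be told apart.

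**Figure D3:**
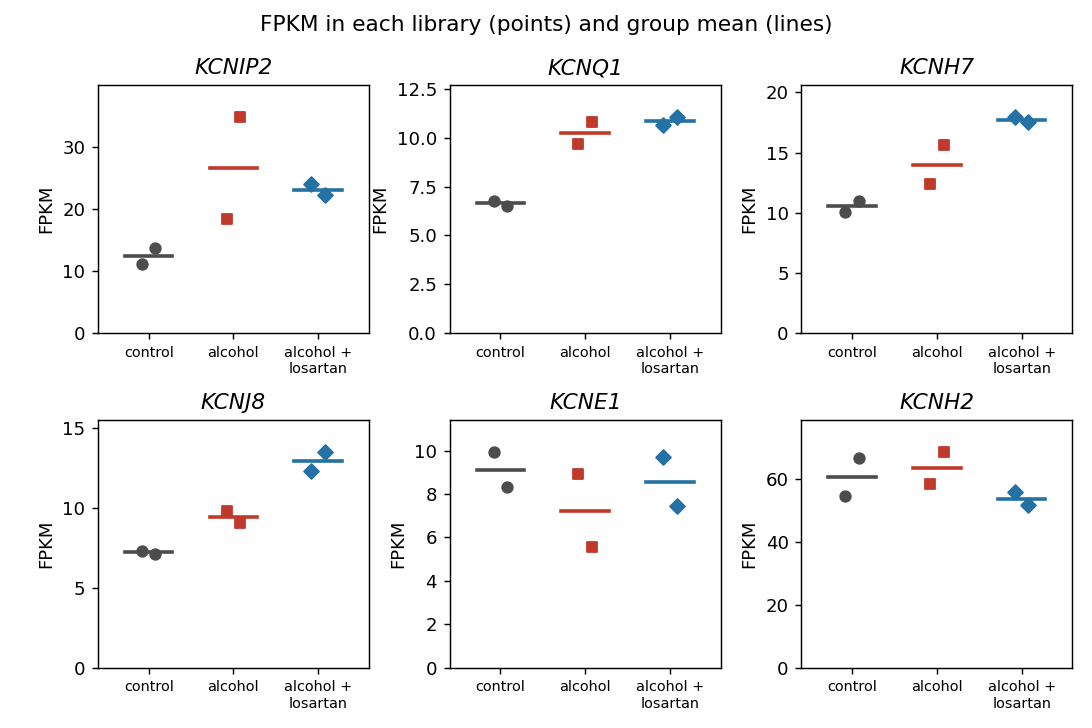
FPKM of 6 potassium channel genes in each library (points) with the group mean (lines), axes starting at 0. KCNIP2 had 11.12 and 13.75 FPKM in control and 18.44 to 34.78 in the libraries with alcohol, KCNJ8 and KCNH7 were highest in the 2 co-treated libraries, and the groups overlapped for KCNE1.

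The comparison of co-treated with alcohol-treated cells asked what adding losartan to alcohol altered. KCNIP2 and KCNQ1, which had the lowest p after alcohol, had log2 fold changes of -0.09 (SE 0.20) and 0.08 (SE 0.16) here. Their libraries overlapped in FPKM. In normalized CPM, both co-treated libraries lay above both alcohol libraries for KCNQ1, which is therefore among the non-overlapping genes counted below. KCNJ8, KCNH7, KCNK3, KCNH2 and KCNV1 had the lowest p. None of the 36 genes passed the adjusted threshold in edgeR, which 0.0134% of all genes did, and DESeq2 called none. At an unadjusted edgeR p under 0.05 there were 5 genes, 13.9% against 5.55% of all genes, with 2 higher after losartan (2.84%) and 3 lower (2.71%). The log2 fold changes were 0.44 (SE 0.17) for KCNJ8, 0.35 (SE 0.14) for KCNH7, -0.80 (SE 0.32) for KCNK3, -0.29 (SE 0.13) for KCNH2 and -0.76 (SE 0.34) for KCNV1, a silent subunit, each with an edgeR adjusted p of at least 0.857. KCNV1 was at 2.14 and 2.69 FPKM in alcohol and 1.45 and 1.41 in co-treated libraries. The libraries did not overlap for 15 genes, 41.7% against 33.6%, and the median log2 fold change was -0.01, against 0.0023 over all genes. The alcohol libraries entered this comparison and that of alcohol with control, so the values of the 2 comparisons are not independent. Leaving out alcohol replicate 2 turned the sign for KCNIP2, to a log2 fold change of 0.30.

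**Figure D4:**
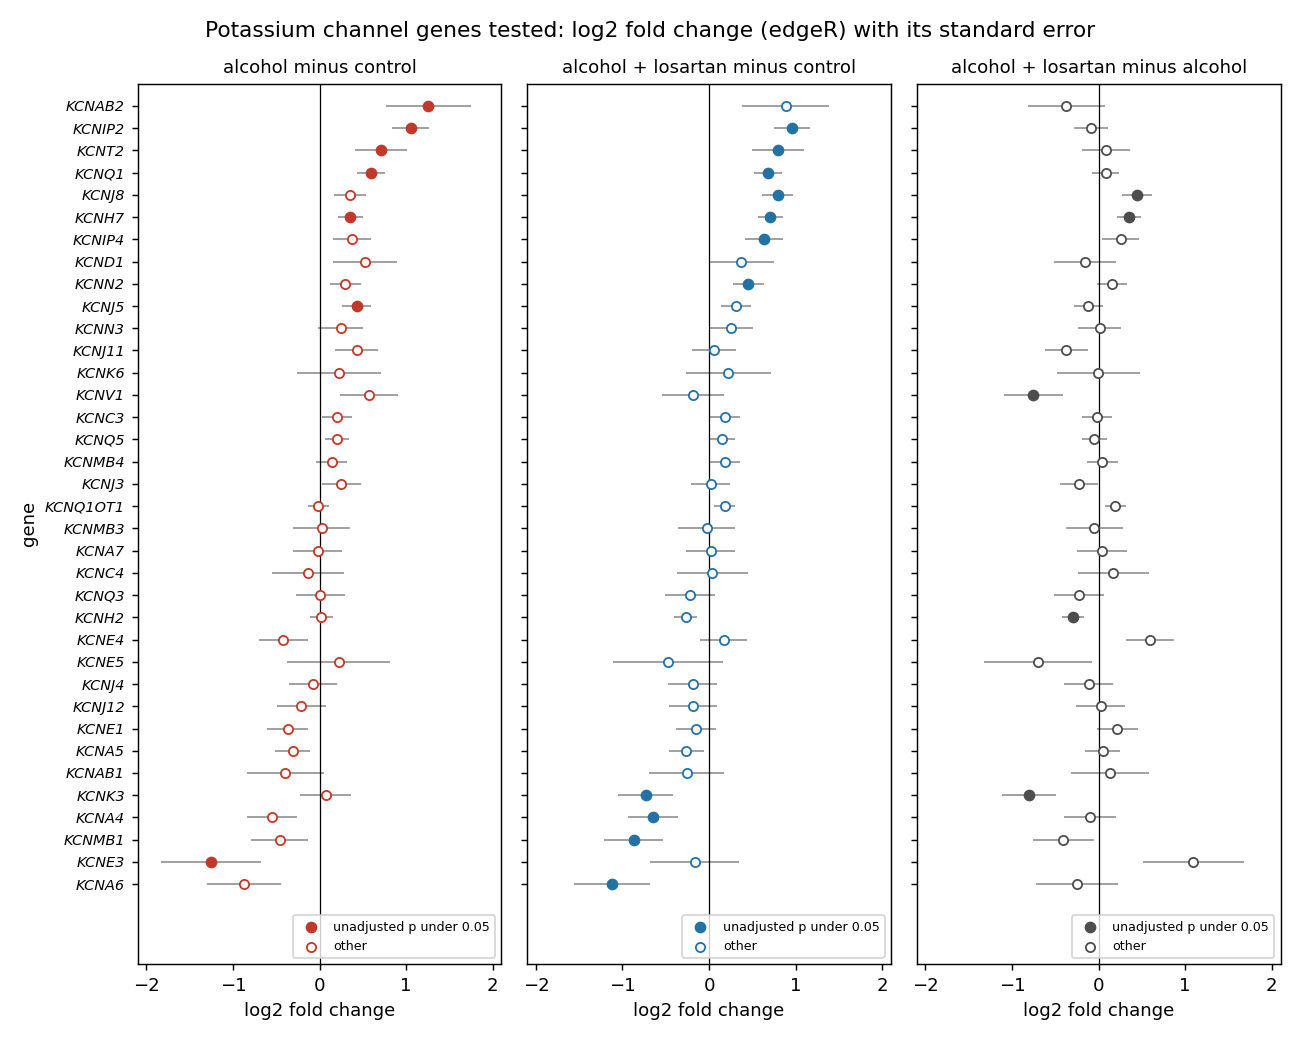
Log2 fold change by edgeR with its standard error (bars) for the 36 potassium channel genes tested, in 3 comparisons, with filled points for an unadjusted p under 0.05. In alcohol against control 7 points are filled, in co-treated against control 11 and in co-treated against alcohol 5, and none of them passed the adjusted threshold.

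A list of 22 KCN genes of the named cardiac currents was followed as a group. Of these, 15 were tested, and 7, KCNJ2, KCND2, KCND3 and KCNE2 among them, did not pass the filter. None was called in any comparison of single groups, and KCNIP2 was called with the alcohol groups combined. At an unadjusted edgeR p under 0.05, 3 of the 15 were higher and 0 lower after alcohol (KCNIP2, KCNQ1 and KCNJ5), against 5.27% and 5.78% of all genes. In co-treated cells against control 4 were higher and 2 lower (6.26% and 6.37% of all genes), with the alcohol groups combined 5 and 1 (6.48% and 7.05%), and in co-treated cells against alcohol 1 and 2 (2.84% and 2.71%). The median log2 fold change of the 15 was 0.24, 0.02, 0.14 and -0.09 in these comparisons, and over all genes it was -0.0033, -0.0017, -0.0066 and 0.0023.

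Partners and regulators of the channels that carry other symbols were examined from a list of 21 genes, of which 19 were analysed and 13 tested. None was called by edgeR in any comparison. At an unadjusted p under 0.05 there was 1 gene of the 13 in alcohol against control (11% of all genes), 3 in co-treated against alcohol (5.55%), 3 in co-treated against control (12.6%) and 2 with the alcohol groups combined (13.5%). ABCC9, the sulfonylurea receptor that pairs with KCNJ8, was at 11.34 and 10.86 FPKM in control, 11.82 and 16.24 in alcohol, and 16.18 and 18.47 in co-treated libraries. Both alcohol and both co-treated libraries lay above both controls in FPKM, and the alcohol and co-treated libraries overlapped. Against control the log2 fold change was 0.30 (SE 0.14, edgeR adjusted p = 0.467) in alcohol. In co-treated cells it was 0.60 (SE 0.14, edgeR adjusted p = 0.0885). ABCC8, the receptor of pancreatic ATP-sensitive channels, had 2 counts or fewer. RNF207, a ubiquitin ligase that raises KCNH2 protein, was at 79.34 and 73.68 FPKM in control, 69.4 and 75.25 in alcohol, and 66.28 and 51.92 in co-treated libraries (log2 fold change -0.42, edgeR adjusted p = 0.194 against control). IRX4, a ventricular transcription factor, was at 34.56 and 40.94 FPKM in control, 34.57 and 46.47 in alcohol, and 32.66 and 22.42 in co-treated libraries. The median log2 fold change of the 13 genes was -0.09 after alcohol and -0.03 in co-treated cells against control, beside the medians over all genes given above.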

How the data were processed

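RNA of 6 libraries of H9-derived cardiomyocytes (control, alcohol, alcohol with losartan, 2 each) was analysed, grouped by the treatment in the labels. The expected counts deposited by the authors are estimates of reads per gene, 33.9% of them not whole, and were rounded for testing. The FPKM deposited by the authors scales them by transcript length and library reads. The submitters' processing notes name HISAT2 2.0.4, Bowtie2 2.2.5, RSEM 1.2.12 and hg38. Strand is not given in the sources used here.

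The genes and gene lists were chosen with earlier results of these data known. Differences were tested by edgeR's quasi-likelihood method (F test, two-sided, TMM normalization, filterByExpr, all 6 libraries in 1 fit, Benjamini-Hochberg adjustment at 0.05 over 14926 genes). Non-overlap was judged on TMM-scaled CPM. Group values are mean ± SD of FPKM. In simulated counts for alcohol against control (14715 genes, 196 changed), the test found 94.9% of genes changed by 2 on the log2 scale. It found 63.9% of genes changed by 1, and 18 unchanged genes were called. These 18 were a larger share of all calls than the threshold of 0.05 is meant to allow. Changes below 1 on the log2 scale, which most KCN genes had, were not simulated. With none changed, 1 call was made. Chi-square per degree of freedom between the 2 libraries of a group was 4.46 to 7.30, so neither was a duplicate of the other. Libraries of different groups were not compared in this way.

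Named genes were KCNIP2, KCNJ2, KCNH2, KCNQ1, the 15 genes of highest mean FPKM, genes called or with the 10 lowest unadjusted p under 0.05 in a comparison, and genes of a list where it is described. A list of pump and transporter genes and some single genes are not reported here. KCN genes outside this rule were named after their values were seen. Shared exon bases were read from GENCODE v29 (9 of 36 tested genes share some), and promoters and motifs from RefSeq on GRCh38. Alternatives were DESeq2, limma (1 or 0.1 added to the FPKM before log2), RLE size factors, no filter, a minimum of 10 counts in all libraries, a block for replicate numbers, fits to only the groups compared, and leaving out single libraries. Software versions were edgeR 4.0.16, limma 3.58.1 and DESeq2 1.42.0 under R 4.3.3.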

Additional observations from a re-analysis of the deposited data

How the results depend on the processing

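For the 35 results on named genes the alternatives gave 476 values. Of these, 450 kept their direction and side of the threshold, 18 crossed to pass it, 7 no longer passed it and 1 reversed. Only KCNIP2 with both alcohol groups together was past the threshold in the main test. Most of the 450 values are therefore results that stayed short of it, and the 7 lost values all belong to KCNIP2. The reversed value was KCNIP2 in co-treated against alcohol without alcohol replicate 2, with a log2 fold change of 0.30 (range without each library -0.41 to 0.30). The KCN genes called after alcohol against control, 0 in the main test, were 1 by DESeq2, 1 with the replicate block and 0 to 1 without each library (1 without alcohol replicate 1). In co-treated cells against control they were 2 by DESeq2, 1 with at least 10 counts in every library, 2 with the block, 2 with only the groups compared and 0 to 2 without each library. With both alcohol groups together they were 0 in both limma fits, 0 without the filter, 3 with the block and 0 to 3 without each library (3 without alcohol replicate 1, 0 without either control or either co-treated library). The cardiac current genes called were 1 by DESeq2, 1 with the block and 0 to 1 without each library after alcohol. They were 1 by DESeq2, 1 with the block, 1 with only the groups compared and 0 to 1 without each library in co-treated cells against control. With both groups together they were 0 in limma, 0 without the filter, 2 with the block and 0 to 2 without each library. Of the partner genes, 1 was called with only the groups compared and 0 to 1 without each library in co-treated cells against control, and 0 to 1 without each library with both groups together. The calls over all genes moved as well. Alcohol against control gave 10 calls over all genes, 72 by DESeq2, 48 with the block, 220 without alcohol replicate 1 and 1 without alcohol replicate 2. Co-treated cells against control gave 54 over all genes, 123 by DESeq2, 78 with at least 10 counts, 136 with the block, 158 with only the groups compared and 2 to 184 without each library. With both groups together there were 83 over all genes, 0 and 5 in limma, 27 without the filter, 256 with the block and 6 to 407 without each library. The cause of these shifts was not tested. The labels do not say whether same-numbered replicates were handled together. Their deviations correlated at 0.11 (control and alcohol), -0.02 (control and co-treated) and 0.04 (alcohol and co-treated) over 14926 genes. Low correlations over all genes cannot decide whether the libraries were paired, and the calls over all genes rose with the block. With both groups together, all libraries enter, so there is no fit of only the groups compared. For the 44 genes under 10 counts in every library, low expression and a lack of depth cannot be told apart.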
